A study of Mus musculus with 48 samples.

Results

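The livers of XY mice carrying 1 knock-in copy of the receptor for insulin-like growth factor 1 (IGF-1R) were compared with the livers of WT males of the same cohort. The libraries were chosen by their labels as liver, male and either WT or IGF-1R Het. This rule gave 12 libraries, of which 11 of the 48 in the series entered the comparison, 5 WT (replicates 1, 2, 3, 4 and 6) and 6 Het (replicates 1 to 6). WT replicate 5 was set aside because it held skeletal muscle transcripts. Of 57010 annotated genes in the count table, 18241 had at least 10 reads in at least 5 of the 23 liver libraries and were tested.

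The series measured polyadenylated RNA from liver and gastrocnemius muscle of male and female mice at 4 months of age. Het mice carried the substitution R1096C, which replaces an arginine in the intracellular kinase part of the receptor, on 1 allele and a WT allele on the other. The change was made by CRISPR knock-in, so that it was present in every tissue and not only in hepatocytes, and the mice came from the cross that followed 2 generations of backcrossing to C57BL/6J. WT mice were of the same C57BL/6J cohort and carried no knock-in. The female livers used below came from the same cohort, with 6 WT and 5 Het. Reads of both alleles were summed within each gene, so the counts do not tell the knock-in transcript from the WT transcript.

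IGF-1R is a receptor tyrosine kinase that passes the signal of IGF-1 to the PI3K-AKT and RAS-ERK cascades. The liver makes most of the circulating IGF-1, under the control of growth hormone, and releases it into blood in complexes with IGF-binding proteins and the acid-labile subunit. Mature hepatocytes themselves carry few IGF-1 receptors and respond mainly to insulin and growth hormone, so that a body-wide receptor change can reach them through circulating hormones as well as directly.

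The substituted residue lies in Igf1r (ENSMUSG00000005533), which spans chr7:67601518-67883416 on the plus strand of GRCm39. Codon 1096 of the 1369-residue protein occupies chr7:67857607-67857609 in coding exon 17 of 21. The reference sequence of the exon around it, chr7:67857547-67857621 on the plus strand, is shown because it is the site at which the Het mice differ from WT, with the WT arginine codon in capitals.
Igf1r codon 1096 context: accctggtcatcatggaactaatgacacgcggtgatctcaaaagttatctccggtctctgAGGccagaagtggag

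The 11 libraries held 31332364 to 52881050 counted reads and were liver by their markers. Hepatocyte markers made up 11.3% to 14.4% of the reads, and skeletal muscle markers at most 0.000179%. In WT replicate 5 the same lists made up 0.0117% and 17.4%, and its log2 CPM (a gene's reads scaled to the library total) correlated with those of the muscle libraries at up to r = 0.985 and with those of the livers at no more than r = 0.673. The share of mitochondrially encoded reads was 4.72% to 5.81% in WT and 4.65% to 6.14% in Het. Of 16 library measures compared between genotypes by a two-sided exact permutation test, the lowest adjusted p was 0.816. Library numbers were not spread evenly over the genotypes, since Het replicates 1 to 4 and WT replicate 1 had numbers below 660 and Het replicates 5 and 6 and the other 4 WT livers had higher ones. The labels do not say what the numbers stand for.

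No gene differed between male Het and WT livers after correction for multiple testing. The edgeR quasi-likelihood test with Benjamini-Hochberg adjustment called 0 of 18241 genes (0.0%), and so did its likelihood ratio test, DESeq2 and limma-voom, with lowest adjusted p-values of 1, 0.211, 0.110 and 0.938. At an unadjusted p below 0.05 the quasi-likelihood test counted 744 genes (4.08%), 411 with a higher mean in Het (2.25%) and 333 with a lower mean (1.83%). The likelihood ratio test counted 815 such genes, DESeq2 837 and limma-voom 888. The median size of the log2 fold change was 0.17, which was smaller than its median standard error of 0.24.

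The spread between livers set which sizes of change could have gone unseen. The 95% interval of the Het to WT ratio lay within a 2-fold change in either direction for 10937 genes (60.0%) and within a 1.5-fold change for 7819 genes (42.9%). These intervals are per gene and are not corrected for multiple testing. Precision depended on expression. Among the 2199 genes with a mean log2 CPM of 6 or more the median half-width of the interval was 0.24 on the log2 scale, and 97.7% of the intervals stayed within 2-fold. Among the 5708 genes with a mean log2 CPM below 0 the median half-width was 1.96, and 1.14% stayed within 2-fold, so that for these genes even large differences were not detectable.

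**Figure D1:**
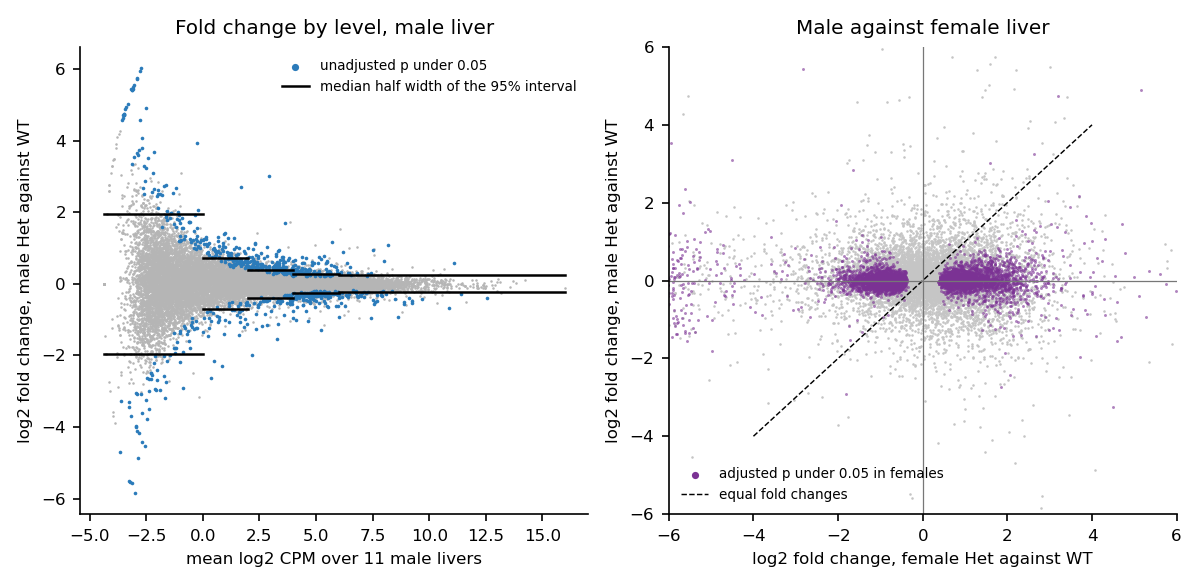
The left panel plots the log2 fold change (Het minus WT) of each of the 18241 genes in male liver against its mean log2 CPM, with lines at the median half-width of the 95% interval in each range of expression. The right panel plots the male against the female log2 fold change of the same genes on axes that end at -6 and 6, with 385 genes outside them, and shows a cloud that is narrow along the male axis and wide along the female axis.

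A principal component analysis of the 11 livers did not separate the genotypes. The first component held 16.8% of the variance, and the mean scores of the genotypes differed by 0.83 SD (p = 0.190, two-sided exact permutation test). The second held 13.9%, with a difference of -0.66 SD (p = 0.299, two-sided exact permutation test). Het replicate 4 lay apart on the first component at 135, while the other 10 livers lay between -51.8 and 51.6. This liver had the fewest genes detected, 17762 against at least 19204 in the others. It also had the largest share of even counts from 1 to 100, 83.0% against at most 79.8%. The part of these measures in its position was not tested.

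**Figure D2:**
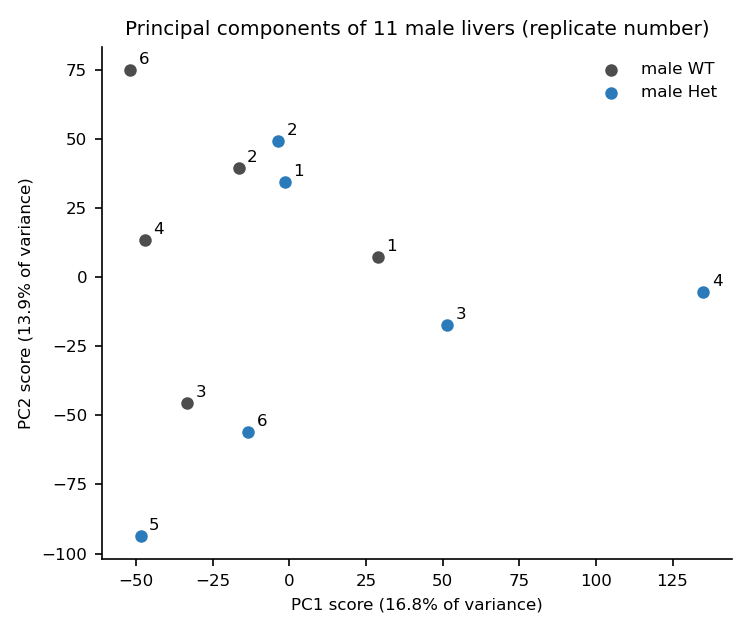
Scores of the 11 male livers on the first and second principal components of log2 CPM (arbitrary units, percent of variance on each axis), coloured by genotype and numbered by replicate. Het and WT livers are interleaved, and Het replicate 4 lies alone at 135 on the first axis.

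Igf1 RNA differed between the genotypes by less than the spread between livers. Igf1 (ENSMUSG00000020053), the ligand, stood at 576, 484, 605, 642 and 432 CPM in the WT livers and at 416 to 548 CPM in the Het livers, with a median of 499. The ranges overlapped over most of their width, with the 3 highest values in WT. The log2 fold change was -0.15 with a standard error of 0.11 and a 95% interval of -0.39 to 0.09 (edgeR adjusted p = 1). Igfals, the acid-labile subunit that stabilises circulating IGF-1 complexes, stood at 90.0, 68.8, 67.3, 71.0 and 74.0 CPM in WT and at 63.5 to 94.1 CPM in Het (median 85.9). Its log2 fold change was 0.17 with a standard error of 0.12. Igf2, the fetal ligand, did not pass the filter on low counts.

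Of the binding proteins, Igfbp1 had the largest difference among those with a mean above 1 CPM. Igfbp1 (ENSMUSG00000020429, chr11:7147651-7152546) encodes a secreted binding protein that insulin represses in hepatocytes. It stood at 25.7, 72.7, 77.2, 54.9 and 41.0 CPM in WT and at 6.28 to 42.2 CPM in Het, with a median of 23.4. The 3 lowest of the 11 values were Het, and 3 WT livers lay above every Het liver. The mean was 54.3 ± 21.6 CPM (SD, n = 5) in WT and 22.3 ± 13.8 CPM (SD, n = 6) in Het. The log2 fold change of -1.29 had a standard error of 0.40 and a 95% interval of -2.14 to -0.43, an unadjusted p of 0.00566 and an adjusted p of 1. It was the only 1 of the 9 tested ligand and binding protein genes with an unadjusted p below 0.05, beside 4.08% of all genes.

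The more abundant binding proteins had smaller differences. Igfbp4, which holds IGF-1 away from its receptor, stood at 1708, 1626, 1560, 1411 and 1171 CPM in WT and at 1212 to 1800 CPM in Het (median 1511), a log2 fold change of 0.01 with a standard error of 0.12. Igfbp2 stood at 330, 463, 609, 401 and 435 CPM in WT and at 133 to 685.5 CPM in Het (median 379). Its log2 fold change was -0.19 with a standard error of 0.28, and both the lowest and the highest value were Het livers. Igfbp3, Igfbp5, Igfbp6 and Igfbp7 had log2 fold changes of -0.06, 0.17, 1.12 and 0.15. Igfbp6 was near the limit of detection, at 0.231 to 0.558 CPM in WT and 0.221 to 2.30 CPM in Het.

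The targeted gene was transcribed at a low level in all livers. Igf1r stood at 2.38, 1.56, 1.88, 1.81 and 2.93 CPM in WT and at 1.59 to 3.74 CPM in Het, with a median of 2.90. The 3 highest values were Het livers, and the 3 others overlapped WT. The log2 fold change of 0.39 had a standard error of 0.27 and a 95% interval of -0.19 to 0.97 (edgeR adjusted p = 1). A knock-in that leaves the transcript intact gives no drop in the count, so this gene does not check the genotype labels. Per kilobase of exon, the mean level of Igf1r in WT was 0.107 CPM per kilobase, against 13.9 for Insr, the insulin receptor, and 53.9 for Ghr, the growth hormone receptor, on the same scale.

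The receptors for the other hormones of the axis had narrow intervals around no difference. Insr stood at 218, 180, 172, 189 and 195 CPM in WT and at 157 to 196 CPM in Het (median 172), a log2 fold change of -0.15 with a 95% interval of -0.35 to 0.06. Ghr stood at 628.6, 583, 445, 557 and 506 CPM in WT and at 440 to 661 CPM in Het (median 598), a log2 fold change of 0.06 with a 95% interval of -0.20 to 0.32. Igf2r, which clears IGF-2 by carrying it to lysosomes, had a log2 fold change of -0.11 and an interval of -0.35 to 0.14. WT and Het livers overlapped for all 4 tested receptors, and the interval of each lay within a 2-fold change.

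**Figure D3:**
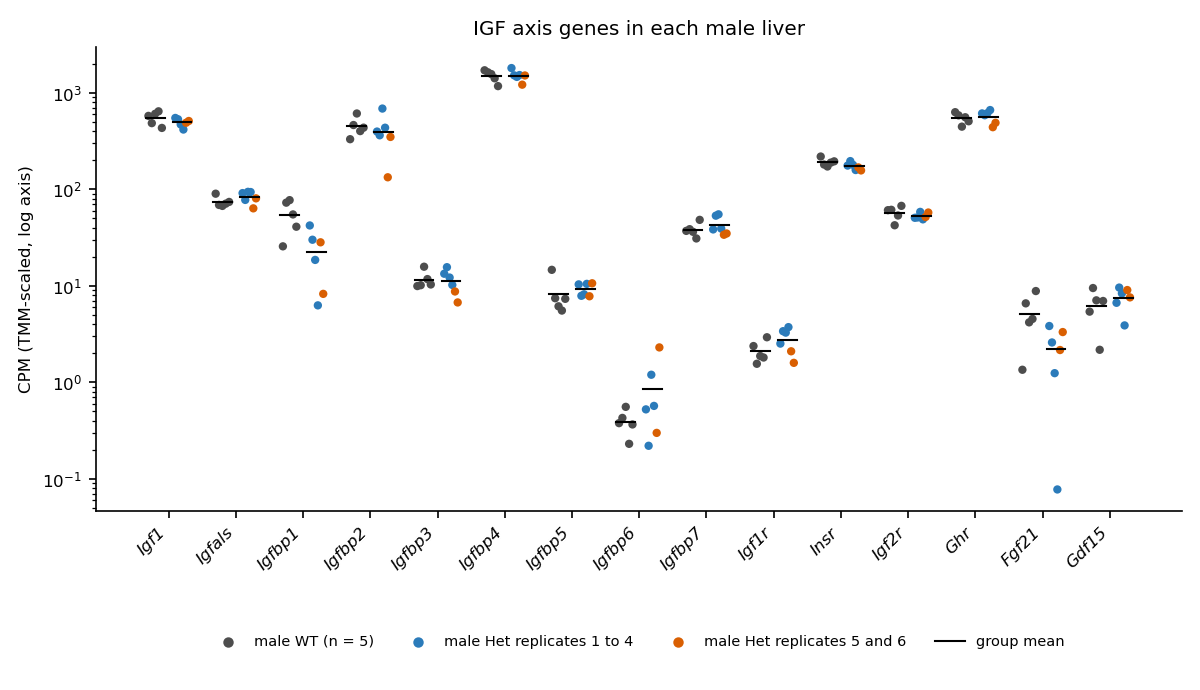
CPM on a log axis of IGF-1 ligand, binding protein and receptor genes in each male liver, with 1 point per liver and a line at the group mean for 5 WT and 6 Het livers. The groups overlap for every gene, and for Igfbp1 the Het points reach down to 6.28 CPM while the lowest WT liver lies at 25.7 CPM.

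RNA of the genes in the cascade downstream of the insulin and IGF-1 receptors was measured closely and showed no difference after correction. Phosphorylation of the proteins, and so the activity of the cascade, was not measured in these libraries. All 39 transducer genes had intervals within a 2-fold change, their median log2 fold change was -0.01, and 3 had an unadjusted p below 0.05 beside the 4.08% of all genes. These were Pik3r2, a regulatory subunit of PI3-kinase (0.25), Gsk3b, the kinase that restrains glycogen synthesis (-0.27), and Irs2, the docking protein of the hepatic insulin receptor (-0.45). Gsk3b stood at 43.2 to 58.8 CPM in WT and at 37.3 to 50.2 CPM in Het, with an unadjusted p of 0.0220. In the growth hormone branch, Stat5a had a log2 fold change of 0.35 and Socs2, a feedback inhibitor of growth hormone signalling, one of -0.96, with unadjusted p-values of 0.0287 and 0.0479. Socs2 varied widely among WT livers, from 4.91 to 37.9 CPM, and all 6 Het livers, at 6.88 to 18.0 CPM, lay inside that range.

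Of the 14 genes listed as FOXO targets or insulin-repressed, 1 had a higher and 1 a lower mean in Het at an unadjusted p below 0.05. Of all genes, 2.25% had a higher and 1.83% a lower mean at that threshold. The first was Angptl8 (ENSMUSG00000047822), a secreted inhibitor of lipoprotein lipase that is known to be induced by feeding and insulin, so that it does not follow the name of its list. Angptl8 stood at 17.3, 17.5, 16.6, 7.43 and 17.1 CPM in WT and at 18.5 to 41.5 CPM in Het, with a median of 22.2. Every Het liver lay above every WT liver, and 4 WT livers came within a few CPM of the lowest Het liver. Its log2 fold change was 0.76 with a standard error of 0.23, an unadjusted p of 0.00498 and an adjusted p of 1. The second was Angptl4, another inhibitor of lipoprotein lipase and a fasting-induced gene, with a log2 fold change of -0.55 and an unadjusted p of 0.0192. Angptl4 stood at 188 to 271 CPM in WT, and Het replicates 3 and 4 were lowest at 92.8 and 81.8 CPM.

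Pck1 and G6pc1, which were chosen after their values were seen, were lowest in Het replicates 3 and 4. Het replicate 4 also had the fewest genes detected of the male livers used. Pck1, the gene for the rate-limiting enzyme of gluconeogenesis, stood at 4080, 3967, 3995, 3492 and 3489 CPM in WT, and at 1308 and 819 CPM in Het replicates 3 and 4 against 2743 to 4225 CPM in the other 4 Het livers. G6pc1, the glucose-6-phosphatase of the same pathway, was lowest in the same livers at 136 and 78.4 CPM, where WT livers held 298 to 886 CPM. The log2 fold changes over the groups were -0.51 and -0.78, with unadjusted p-values of 0.119 and 0.0971. Among 17 insulin-induced lipogenic genes, none had an unadjusted p below 0.05, the median log2 fold change was -0.03, and Srebf1, the transcription factor of the programme, had 0.37 with a standard error of 0.19.

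Across all 24 pathway lists, 34 of 520 tested genes (6.54%) had an unadjusted p below 0.05, 14 with a higher and 20 with a lower mean in Het, beside 4.08% of all genes tested. The lists were chosen with results of these data known. In 18 lists the median log2 fold change lay between -0.1 and 0.1, and the extremes were -0.14 for NRF2 targets and 0.26 for early genes of the ERK pathway, beside 0.01 for all genes. Both extremes rested on 1 liver, since the NRF2 median was 0.04 without WT replicate 2 and the ERK median was -0.13 without Het replicate 5. The interval lay within a 2-fold change for 381 of the 520 genes, and 1, Angptl8, had no overlap between the groups.

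**Figure D4:**
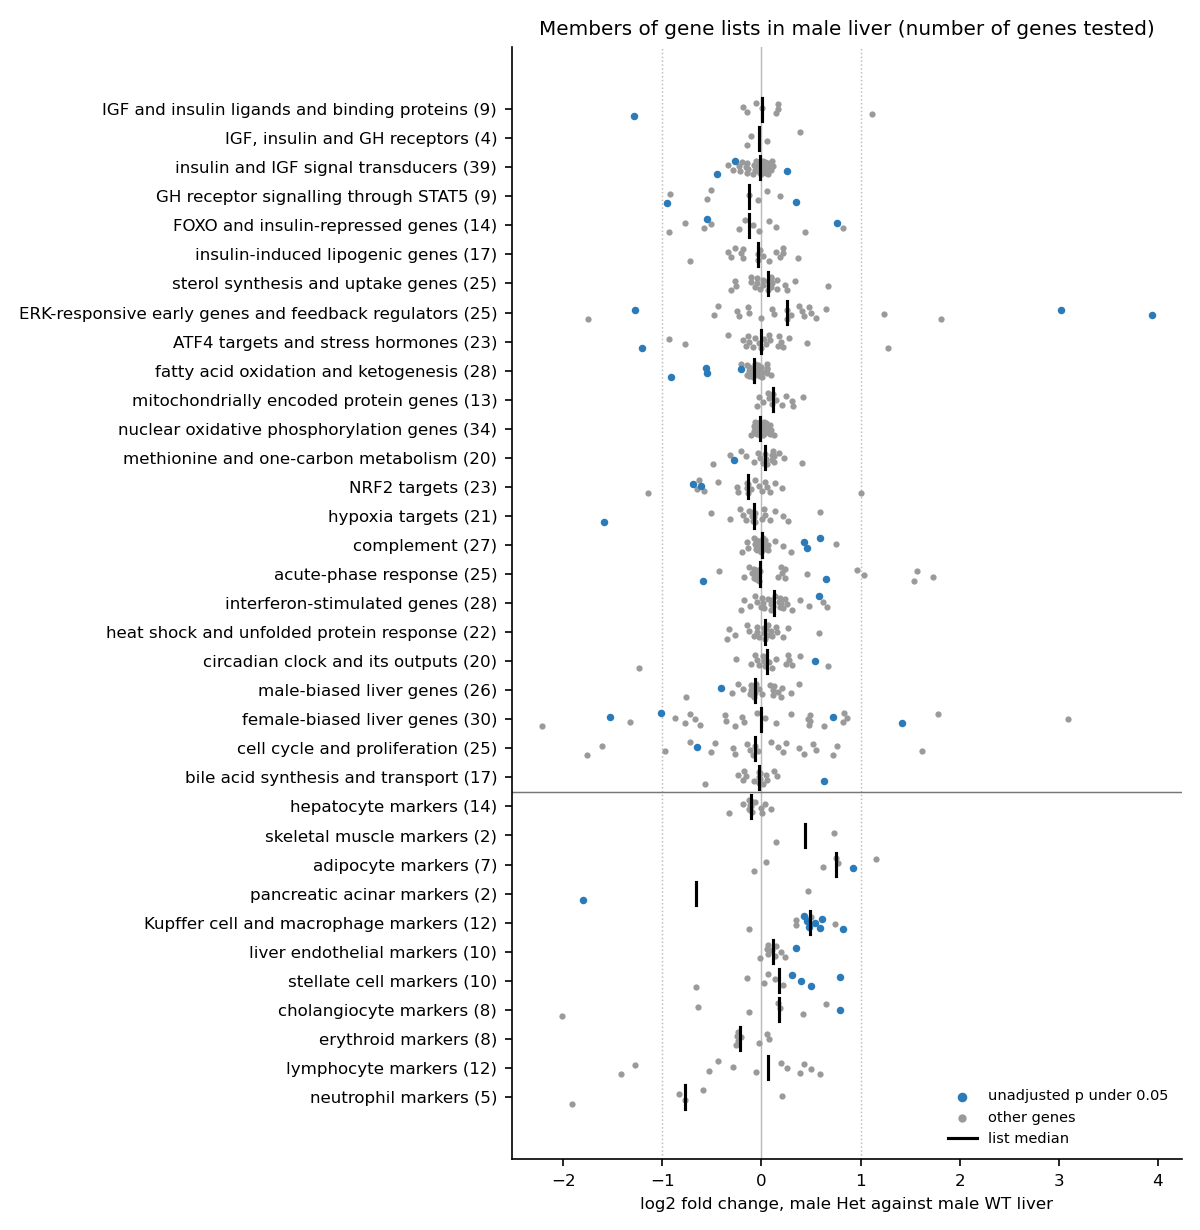
Log2 fold change (Het minus WT) in male liver of each tested member of the gene lists, with 1 point per gene and a mark at the list median. Medians of the pathway lists run from -0.14 to 0.26. Medians of the cell type lists run from -0.77 for neutrophil markers to 0.75 for adipocyte markers, with Kupffer cell and macrophage markers at 0.49.

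Nuclear genes of oxidative phosphorylation lay close to WT. None of the 34 nuclear oxidative phosphorylation genes had an unadjusted p below 0.05, all 34 intervals lay within 2-fold, and the log2 fold changes ran from -0.11 to 0.12. None of the 13 mitochondrially encoded protein genes had an unadjusted p below 0.05 either, with a median of 0.11 and 11 higher in Het. The lead member mt-Co2, a core subunit of complex IV, stood at 41.0, 39.4, 37.4, 26.7 and 20.8 CPM in WT and at 28 to 61.2 CPM in Het. Of 28 genes of fatty acid oxidation and ketogenesis, 21 had a lower and 7 a higher mean in Het, where 51.8% of all genes were higher. At an unadjusted p below 0.05, 4 had a lower mean, beside 1.83% of all genes in that direction, and none a higher one. These were Ehhadh, an enzyme of peroxisomal oxidation (-0.56), the omega-hydroxylases Cyp4a10 (-0.55) and Cyp4a14 (-0.91), and Hadhb, a subunit of the mitochondrial trifunctional protein (-0.21). Ehhadh stood at 343, 812, 475, 644 and 619 CPM in WT and at 317 to 465 CPM in Het (median 393), and WT replicate 1 lay within the Het range while the other 4 WT livers lay above it. Its unadjusted p was 0.00517. Cpt1a, which admits fatty acids to mitochondria, had a log2 fold change of -0.07.

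The hormones that the stressed liver sends out were at low levels in both groups. Fgf21, a fasting and stress hormone, stood at 1.35, 6.59, 4.18, 4.54 and 8.83 CPM in WT and at 0.0778 to 3.84 CPM in Het (median 2.38). Its log2 fold change of -1.21 had a 95% interval of -2.40 to -0.01 and an unadjusted p of 0.0485. The 4 highest values were WT, and WT replicate 1 lay among the Het livers. Gdf15, which signals nausea and reduced appetite to the brainstem, had a log2 fold change of 0.28 with a 95% interval of -0.36 to 0.91. The other 21 tested genes of the list of ATF4 targets and stress hormones had unadjusted p-values of 0.05 or more.

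The remaining lists gave scattered genes, set beside 2.25% of all genes higher and 1.83% lower in Het at an unadjusted p below 0.05. Sterol synthesis and uptake (25 genes) and the heat shock and unfolded protein response (22 genes) had none at an unadjusted p below 0.05. Cyp8b1, the 12-alpha-hydroxylase of bile acid synthesis, stood at 245, 193, 168, 185 and 190 CPM in WT and at 189 to 418 CPM in Het (median 301). Het replicates 3, 4 and 6 lay above all WT livers and the other Het livers did not, and the log2 fold change was 0.63 (unadjusted p = 0.00864). Of 28 interferon-stimulated genes, 22 had a higher and 6 a lower mean in Het, where 51.8% of all genes were higher. Their median log2 fold change was 0.13. Psmb9, an interferon-induced subunit of the immunoproteasome, had a log2 fold change of 0.58 and was the only 1 of the 28 past the unadjusted threshold. Mat1a, which makes S-adenosylmethionine in hepatocytes, had -0.28, the glutathione transferase Gstm1 -0.69 (-0.19 without WT replicate 2, which held 5123 CPM), the secreted peptide gene Adm -1.59, Il1rn, the antagonist of interleukin-1, -0.59, the clock repressor Bhlhe41 0.54 and the S-phase cyclin Ccne2 -0.65. Of 26 male-biased genes 1, the urinary protein gene Mup20, had a lower mean in Het at an unadjusted p below 0.05 (-0.41), and of 30 female-biased genes 2 had a higher and 2 a lower mean, among them the steroid hydroxylase Cyp17a1 (-1.53).

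Several markers of resident macrophages had a higher mean in Het livers before correction. Of 12 Kupffer cell and macrophage markers, 7 had a higher mean at an unadjusted p below 0.05 (C1qa, Cd5l, C1qc, C1qb, Csf1r, Clec4f and Adgre1), beside 2.25% of all genes in that direction, and the median log2 fold change was 0.49. None passed correction. C1qa, a chain of the first complement component and product of macrophages, stood at 14.3, 16.2, 20.8, 12.2 and 18.3 CPM in WT and at 18.4 to 30.2 CPM in Het, with a median of 24.9. WT replicate 3 overlapped the 2 lowest Het livers, replicates 5 and 6. Its log2 fold change was 0.59 with a standard error of 0.17, an unadjusted p of 0.00292 and an adjusted p of 1. C1qa, C1qb and C1qc were also the 3 of 27 complement genes with an unadjusted p below 0.05. Over all 27, 15 had a higher and 12 a lower mean in Het, and the median log2 fold change was 0.01.

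The whole macrophage list did not separate all livers by genotype. Its summed share of reads was 0.0169% to 0.0368% in WT and 0.0222% to 0.0495% in Het (p = 0.104, two-sided exact permutation test, adjusted p = 0.816 over 16 measures). WT replicate 6 held 0.0368%, more than 5 of the 6 Het livers. Each other WT liver held at most 0.0209%, below the lowest Het liver. In RNA from whole liver, more cells of a type and more RNA per cell cannot be told apart. The size of the difference varied with the library numbers. With the 6 livers of library number 660 and over alone, the median log2 fold change of the list was -0.02, with the number range as a covariate it was 0.34, and with Het replicates 1 to 4 alone against all WT livers it was 0.64. Among the other cell type lists, stellate cell markers had 4 of 10 members with a higher mean at an unadjusted p below 0.05, beside the same 2.25% of all genes, the collagens Col1a1, Col3a1 and Col1a2 and the receptor Pdgfrb, with a list median of 0.18 that was -0.003 in the livers of library number 660 and over. The part of the library number in these differences was not tested beyond those values. Adipocyte markers had 1 of 7 such members (Fabp4, 0.92), with a list median of 0.75 and with Adipoq, Plin1 and Retn near 0 CPM, cholangiocyte markers 1 of 8 (Epcam, 0.80), and acinar markers 1 of 2 with a lower mean (Cela2a, -1.80). Endothelial markers had 1 of 10 (Clec4g, 0.35), hepatocyte markers 0 of 14 with a median of -0.11, and erythroid, lymphocyte and neutrophil markers none. The 5 tested neutrophil markers, 1 higher and 4 lower in Het, had a median of -0.77.

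Without regard to lists, 70 of 18241 genes (0.384%) had no overlap between the 5 WT and 6 Het livers, 43 higher (0.236%) and 27 lower (0.148%) in Het. Random labels would part 5 from 6 livers in 1 direction at a rate of 0.00216 per gene, so these counts are near those of random labels. Of the 70 genes, 48 were protein coding and 31 averaged a log2 CPM of 1 or more. Eid2b, of the EID family of differentiation inhibitors, had the lowest unadjusted p of all genes (0.000457, adjusted p = 1). It stood at 2.16, 1.70, 2.54, 1.69 and 1.65 CPM in WT and at 2.7 to 4.93 CPM in Het (median 3.88), a log2 fold change of 1.00 with a standard error of 0.23. The next genes higher in every Het liver were Uba7, the activating enzyme for the ubiquitin-like protein ISG15 (log2 fold change 0.62), the class I histocompatibility gene H2-Q5 (0.91), Fdxacb1 (0.81) and Klhl26 (0.76). H2-Q5 has close paralogs among which reads can be divided, so its value is uncertain.

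The genes lower in every Het liver were led by Ubn2, a ubinuclein of the chaperone complex that deposits a replacement histone. Ubn2 stood at 43.6, 40.4, 41.3, 48.4 and 41.2 CPM in WT and at 29.1 to 37.6 CPM in Het, with a median of 31.6. Its log2 fold change of -0.41 had a standard error of 0.10 and an unadjusted p of 0.000982. Zbtb40 (-0.58), Sav1, a scaffold of the Hippo pathway (-0.51), Chmp4c of the ESCRT-III complex (-0.73) and the transcription elongation factor Tcea1 (-0.28) followed. For Ubn2 and Zbtb40 the female fold changes had the opposite sign, 0.66 and 1.19.

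Het replicates 5 and 6 stood apart from the other 9 livers in a small set of genes, which were chosen after their values were seen. Of 11210 genes that averaged a log2 CPM of 1 or more, 9 were at least 2-fold higher in both of these livers than in any other (Ly6d, Krt8, Krt8-ps, Krt18, Srxn1, S100a10, Fabp4, Ifi27l2b and Mrap) and 1, Abi3bp, was at least 2-fold lower. Krt8 and Krt18 encode the keratin pair that forms the intermediate filaments of hepatocytes, and Krt8-ps is a processed pseudogene whose reads may belong to Krt8. Krt8 stood at 805 and 818 CPM in Het replicates 5 and 6 and at 140 to 215 CPM in the other 9 livers. Krt18 stood at 462 and 452 CPM against 92.0 to 176 CPM. The other 4 Het livers lay inside the WT range for both keratins.

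Genes with other roles showed the same split. Srxn1, which repairs oxidised peroxiredoxins, stood at 248 and 278 CPM in Het replicates 5 and 6 against 37.5 to 98.6 CPM elsewhere, S100a10 at 207 and 157 CPM against 36.0 to 62.9 CPM, and Fabp4, a fatty acid carrier of adipocytes and macrophages, at 28.7 and 22.7 CPM against 4.89 to 9.28 CPM. Pmvk, an enzyme of the mevalonate pathway, stood at 56.5 and 70.7 CPM against 14 to 28.7 CPM. As a list, sterol synthesis genes were on average 0.52 and 0.71 above the 11-liver mean on the log2 scale in these 2 livers, and -0.51 to 0.36 from it in the others. Cholangiocyte markers were also highest there, at 0.0076% and 0.0121% of reads against 0.0047% to 0.0063% elsewhere, with Spp1 at 92.8 CPM in Het replicate 6 while Krt19 was at 1.59 and 1.02 CPM against 0.0461 to 1.51 CPM elsewhere. The part of bile duct cells in the keratin values was not tested. Adiponectin (Adipoq) was at 0.129 and 0.0886 CPM, near 0 as elsewhere.

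When the comparison was held to library numbers of 660 and over, these 2 Het livers stood against 4 WT livers, and 10 genes passed the adjusted threshold in the edgeR quasi-likelihood test. They were Krt8, Krt18, S100a10, Mrap, Pmvk, Srxn1, Ly6d, Fabp4, Slc22a7 and Smpd3, all with a higher mean in Het. Krt8 had a log2 fold change of 2.11 in that fit (adjusted p = 0.00156), of 1.09 over all 11 livers (adjusted p = 1) and of -0.11 with Het replicates 1 to 4 alone, a comparison added after seeing the data. For Krt18 the values were 1.82, 0.93 and -0.05.

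**Figure D5:**
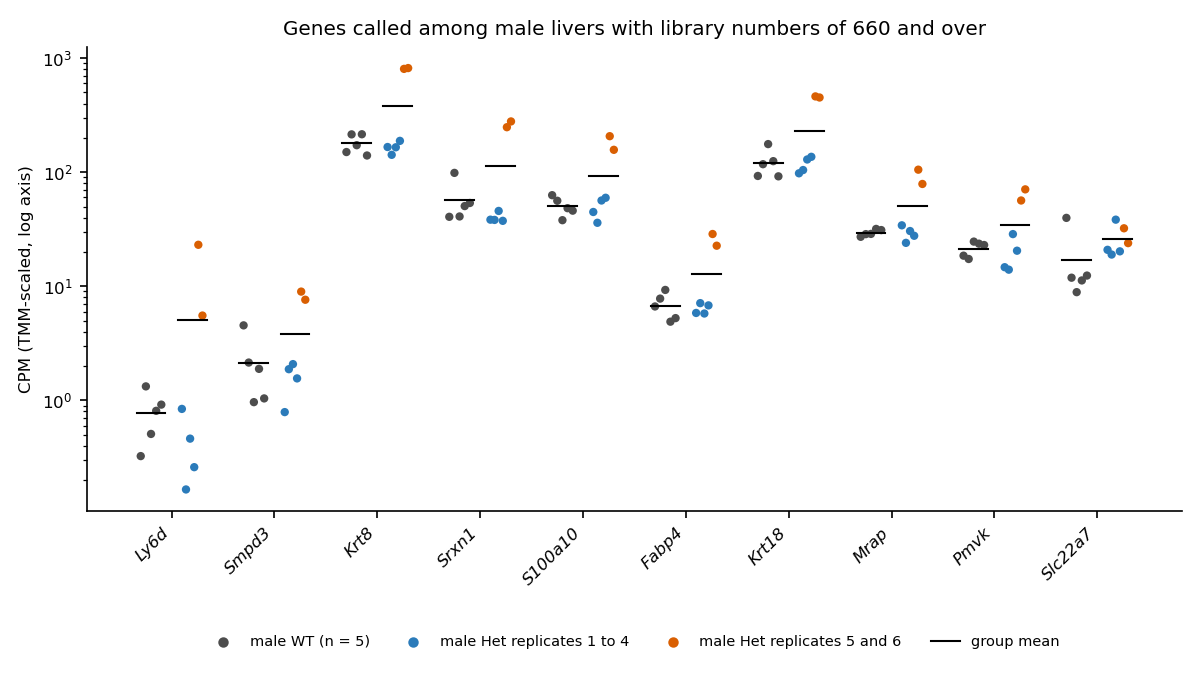
CPM on a log axis of the genes called among livers of library number 660 and over, with 1 point per male liver and Het replicates 5 and 6 marked. Both marked livers lie above the other 9 for 9 of the 10 genes, and among them for Slc22a7.

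Het replicate 5 also stood alone in acute-phase and immediate early genes. The acute-phase list was on average 1.41 above the 11-liver mean on the log2 scale in this liver and at most 0.53 above it in any other. The serum amyloid genes Saa1 and Saa2 stood at 742 and 529 CPM, where the other 10 livers reached 189 and 103 CPM, and the iron-binding protein gene Lcn2 stood at 109 CPM against at most 10.8 CPM. Fos, an immediate early gene, stood at 71.4 CPM against at most 2.86 CPM. The group log2 fold change of Fos was 3.03 (unadjusted p = 0.0327), and it was -0.80 without this liver.

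The male effect was set beside the female effect in the same tissue, since the design holds both sexes. In female livers 5886 of the same 18241 genes (32.3%) passed the adjusted threshold, and the difference between the male and the female effect passed it for 4655 genes (25.5%). The median size of the log2 fold change was 0.17 in males and 0.70 in females, with median standard errors of 0.24 and 0.34, so the female livers were the more variable. Library measures moved with genotype in females without overlap. The mitochondrial share of reads was 2.41% to 4.94% in WT and 7.31% to 16.6% in Het, hepatocyte markers made up 13.3% to 15.4% and 6.67% to 11.9% of reads, 18010 to 21346 and 15372 to 16538 genes were detected, and 75.2% to 83.8% and 85.3% to 86.8% of counts from 1 to 100 were even. With the mitochondrial share as a covariate, the test of the difference called 1894 genes rather than 4655, and the part of the other measures was not tested. Of the 5886 genes called in females, 5737 (97.5%) had a male 95% interval that did not include the female fold change, a count that leaves out the error of the female value. In the test that includes it, 4396 of them passed. The 5886 genes were chosen by their female effect, and the same female livers enter both counts. Neither count is therefore a separate test of a sex difference. In males, 279 of the 5886 genes (4.74%) had an unadjusted p below 0.05, beside 4.08% of all genes, and 3174 (53.9%) had the same sign. The 2491 genes that rose in female Het livers had a median log2 fold change of 1.12 there and of 0.01 in males, and the 3395 genes that fell had -0.98 and -0.02. Across the 18241 genes, which are not independent replicates, the male and female log2 fold changes had a Pearson r of -0.0026.

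Members of the IGF-1 axis were among the genes whose effect differed between the sexes. Ghr, for which the male log2 fold change was 0.06, had -0.88 in females, and the difference was 0.96 (edgeR interaction adjusted p = 0.00243). For Igf2r, Igfals and Insr the differences were 1.12, 0.80 and 0.68, with adjusted p-values of 0.00308, 0.00404 and 0.00562. Igf1, Igf1r and Igfbp1 did not pass in that test, with adjusted p-values of 0.0912, 0.466 and 0.0965. Of 13 mitochondrially encoded genes, 10 passed the test of the difference, beside 25.5% of all genes. The median log2 fold change of the 13 was 0.11 in males and 1.63 in females. Of the macrophage markers, 10 of 12 passed, with medians of 0.49 and -1.06.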

How the data were processed

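Poly(A) RNA libraries of mouse liver were aligned to GRCm39 by the authors with STAR (2.7.11b) and counted per gene with featureCounts (2.0.6), per the submitters' processing notes. The annotation, the use of strand and the treatment of multimapping reads are not given in the sources used here. The deposited values are raw counts of reads per gene, and 98.8% of gene IDs were named from GENCODE release M39. Between 76.3% and 83.0% of counts from 1 to 100 were even in the male livers used, so counts may exceed the number of independent fragments, and halved counts were tried as an alternative. Every sample column could be matched to its labels.

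A gene was kept where 20% or more of the 23 livers held 10 reads or more of it. Male Het and WT livers were compared with the edgeR (4.0.16) quasi-likelihood test after TMM normalization, in R 4.3.3, with Benjamini-Hochberg adjustment over all 18241 genes and a threshold of 0.05. Standard errors were derived from the quasi-likelihood F, and 95% intervals from its t quantile. CPM are scaled by TMM. The test of the difference between sexes used 22 livers and 4 group means. DESeq2 (1.42.0), limma-voom (limma 3.58.1), other normalizations, filters, covariates and left-out livers were alternatives. WT replicate 5 was left out by a rule on its muscle markers and kept as an alternative. Scripts were tested on simulated data.

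The members and gene lists were chosen with earlier results of these data known. Named genes were all tested ligands, binding proteins and receptors with Fgf21 and Gdf15, the member of each other pathway list with the lowest unadjusted p, and the 5 genes in each direction with the lowest unadjusted p among those without overlap and averaging a log2 CPM of 1 or more. Other genes were chosen after their values were seen. The labels do not name the animals, and library number 671 belongs to a female WT liver and to a male Het muscle. Each liver library was taken to come from a separate animal. On that reading, p-values measure the spread between animals of 1 cohort.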

Additional observations from a re-analysis of the deposited data

Results flagged for a closer look

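Among 124 groups of livers tested for a single value far from the rest, 11 had one, and chance gives about 1 in 20 groups. In WT, Igfbp5 was highest at 14.65 CPM (next liver 7.44) and Stat5a at 16.38 CPM (next 13.4), and Angptl8 was lowest at 7.432 CPM (next 16.6). In Het, Fos was highest at 71.4 CPM (next 1.43), Gstm1 at 2131 CPM (next 1459) and Fdxacb1 at 4.545 CPM (next 3.43). Of the marker lists, pancreatic acinar genes were highest in 1 WT liver at 0.002724% of reads and in 1 Het liver at 0.004078%. WT replicate 6 was highest in WT for Kupffer cell markers, at 0.0368% of reads, and for liver endothelial markers, at 0.03903%, and WT replicate 1 for erythroid markers, at 0.05972%.

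Of the 46 named genes, 13 had a genotype effect that differed between male and female livers by the edgeR interaction test. Part of the named genes were chosen by their male values, and the same male livers entered this test, so the count is not independent of that choice. Over all 18241 genes the share was 25.5%, and 1894 genes passed with the mitochondrial share as a covariate. The male minus the female log2 fold change was positive for Igfals (0.80), Igfbp5 (1.41), Igfbp7 (0.72), Insr (0.68), Igf2r (1.12), Ghr (0.96), Pmvk (1.82) and C1qa (1.71). It was negative for Fgf21 (-2.24), mt-Co2 (-2.08), Gstm1 (-1.51), Ubn2 (-1.04) and Zbtb40 (-1.75). Adjusted p-values ran from 4.36e-05 for mt-Co2 to 0.0420 for Igfbp7. None of these genes passed the adjusted threshold in males alone.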

How the results depend on the processing

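The count of 0 genes at the adjusted threshold was unchanged under every other normalization, tool, filter, covariate and left-out liver tried, except for the livers of library number 660 and over, with 10 genes. At an unadjusted p below 0.05, the 744 genes became 2256 without a filter on low counts, 326 with all 4 liver groups in 1 fit and 1409 in the livers of library number 660 and over. The 70 genes without overlap became 33 with all 6 WT livers, 108 to 235 with any 1 liver left out, and 310 with Het replicates 1 to 4 alone, an alternative chosen after seeing the data. The fewer the livers, the more often random labels part the groups. The 4655 genes with a sex difference became 1894 with the mitochondrial share as a covariate. The replicate numbers do not pair animals of the 2 genotypes, and same-numbered livers had correlations of -0.0446 to 0.0456. With a replicate block, 0 genes passed the adjusted threshold, 649 the unadjusted one, and 4082 differed between sexes.

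Of 1146 log2 fold changes of named genes under the alternatives, 30 turned sign. With all 6 WT livers these were Igf1 0.081, Igfbp2 0.0688, Igfbp5 -3.38, Igfbp6 -2.39, Igf1r -1.03, mt-Co2 -0.19 and Bhlhe41 -1.30, where 1 WT library held muscle transcripts, and the genotype differences in mitochondrial, hepatocyte, muscle, adipocyte and stellate marker shares were then -1.21, 1.62, -2.906, -0.0145 and -0.06351 percentage points of reads. With Het replicates 1 to 4 alone they were Igfbp2 0.0695, Igfbp3 0.15, Pmvk -0.14 and Fos -0.49. With the number range as a covariate they were Igfbp4 -0.10 and Ghr -0.12, and in the livers of number 660 and over Igfbp4 -0.10, Igfbp7 -0.18, Igf1r -0.16, Ghr -0.19 and Dnajb9 0.036. With the mitochondrial share they were Igfbp4 -0.0137 and Ghr -0.0126, and with the replicate block Fos -0.72. With 1 liver left out, Igfbp3 ran from -0.179 to 0.0682, Igfbp4 from -0.0686 to 0.0624, Ghr from -0.0148 to 0.121 and Fos from -0.804, without Het replicate 5, to 3.35. Apart from the muscle library, the causes were not tested.

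Depth limits genes with a mean log2 CPM below 0, of which 1.14% had intervals within 2-fold. With 5 and 6 animals, differences smaller than the half-widths of the stated intervals could not be told from 0. The intervals are per gene without correction for multiple testing, so larger differences could also miss the adjusted threshold. Igfbp1, with a log2 fold change of -1.29 and an interval of -2.14 to -0.43, did so.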
